A study of Drosophila melanogaster with 18 samples.

Results

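The genes examined here were 10 septate junction genes of *Drosophila*: *mesh*, *Ssk* and *Tsp2A* of the smooth septate junction, and *Nrx-IV*, *cora*, *yrt*, *Mcr*, *sinu*, *kune* and *Lac* of the pleated septate junction. They were chosen by gene symbol in the authors' deposited Targeted DamID (TaDa) table, whose lists hold 7153 genes in all. A gene in no list was counted as not listed. The series profiled dissected midguts of mated females, pooled within a sample, in 18 samples, 3 for each of 6 genotypes. Virgins carrying *esg-Gal4*, active in intestinal stem cells and enteroblasts (ISCs/EBs), or *Myo1A-Gal4*, active in enterocytes (ECs), were crossed to males carrying *UAS-LT3-Dam*, *UAS-LT3-Dam-PolII* or *UAS-LT3-Dam-ets21c-RA*, and each driver stock also carried *UAS-GFP* and a temperature-sensitive *tub-Gal80*. Adult daughters were then kept for 72 h at 29°C, which lets the drivers act, so all 6 genotypes shared the temperature shift. More midguts were pooled per sample for *esg-Gal4* than for *Myo1A-Gal4*, so the input differed along with the cell type. No stress, injury or loss of *ets21c* was part of these samples, and the Ets21c that was mapped came from a transgene of the RA isoform expressed at a low level.

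Septate junctions are the occluding junctions of insect epithelia, which limit the passage of solutes between neighboring cells, as tight junctions do in vertebrates. Epithelia of ectodermal origin, such as epidermis, trachea and salivary gland, and the glia that form the blood-brain barrier build the pleated form, whereas the midgut and the Malpighian tubules build the smooth form. In the adult midgut, ECs carry smooth septate junctions, and the membrane proteins Mesh, Ssk and Tsp2A depend on one another to reach the junction. Several pleated junction proteins also have roles away from the junction, among them cell polarity and adhesion.

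In TaDa, a protein fused to a bacterial DNA adenine methylase (Dam) leaves methylation on GATC sites near the places it occupies, and Dam alone serves as the control. The value given for each gene, called its height, is the authors' mean of the fusion signal against that of Dam alone, as a log2 ratio, with 1 height per gene, cell type and fusion. For RNA polymerase II (PolII) the height is the mean over a transcript, and the study took a listed gene as transcribed. For Ets21c it is the height of a peak assigned to the gene because it lies within 5 kb with no other gene between. A gene is listed where it passed the authors' thresholds on height and on the false discovery rate (FDR). The table holds no values of single samples and no read counts, so no height has a replicate spread, the depth behind it is unknown, and no difference between heights could be tested. The counts of listed members are therefore set beside the share of all 13968 protein-coding genes of the annotation that were listed in the same way. Each height also averages over all cells in which a driver acts, so occupancy in fewer cells and weaker occupancy per cell cannot be told apart.

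The 3 smooth junction genes lie far apart in the genome, and their promoter regions are printed here because these genes hold every PolII listing and the highest Ets21c height among the members. In the coordinates of BDGP6 (dm6), *mesh* (FBgn0051004) spans 31178389 to 31195762 on the minus strand of chromosome 3R with 15 exons. *Ssk* (FBgn0036945) spans 20188522 to 20189779 on the plus strand of 3L with 3 exons, and *Tsp2A* (FBgn0024361) spans 1346553 to 1348143 on the plus strand of X with 2 exons. Each sequence is the 250 bp before the annotated start site, read 5′ to 3′ along the gene from the RefSeq release 6 genome: chr3R:31195763-31196012 for *mesh*, chr3L:20188272-20188521 for *Ssk* and chrX:1346303-1346552 for *Tsp2A*. Capitals mark GATC, which Dam methylates, GGAA or its complement TTCC, the core that ETS factors such as Ets21c are known to contact, and GATAA or its complement TTATC, the core of sites for GATA factors, the family of the midgut regulator GATAe.
mesh: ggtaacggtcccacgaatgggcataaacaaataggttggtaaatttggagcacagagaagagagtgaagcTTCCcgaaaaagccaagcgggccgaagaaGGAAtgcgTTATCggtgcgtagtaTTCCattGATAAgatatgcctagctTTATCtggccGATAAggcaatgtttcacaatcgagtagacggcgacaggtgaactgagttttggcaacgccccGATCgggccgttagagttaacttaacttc
Ssk: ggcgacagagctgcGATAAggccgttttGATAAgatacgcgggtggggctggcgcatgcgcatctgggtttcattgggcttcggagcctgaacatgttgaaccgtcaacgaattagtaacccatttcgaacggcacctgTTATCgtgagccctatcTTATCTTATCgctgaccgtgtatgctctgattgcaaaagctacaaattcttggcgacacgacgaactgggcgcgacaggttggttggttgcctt
Tsp2A: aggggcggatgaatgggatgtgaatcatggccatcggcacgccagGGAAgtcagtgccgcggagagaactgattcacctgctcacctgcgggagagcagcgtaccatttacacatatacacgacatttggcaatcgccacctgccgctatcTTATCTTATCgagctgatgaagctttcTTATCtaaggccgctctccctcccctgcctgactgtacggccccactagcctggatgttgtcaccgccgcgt

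The *mesh* window held 3 copies of GGAA on either strand, at positions -180, -151 and -127 from the start site, and a single GATC at -29. The *Ssk* window held no GGAA and no GATC, and that of *Tsp2A* held 1 GGAA and no GATC. GGAA is common, with at least 1 copy in 82.7% of the 13967 windows of protein-coding genes and a median of 2, and GATC was in 38.4%. None of the 10 members' windows held the longer ETS motif CCGGAA, which 5.31% of all windows held. The letters GATAA, searched for only after the sequences had been seen, occurred 4 times for *mesh*, 5 times for *Ssk* and 3 times for *Tsp2A* on either strand. At least 3 copies were found in 5.94% of windows, at least 4 in 1.55% and at least 5 in 0.279%. The 7 pleated junction genes had 0 or 1 copy each. *Ssk* and *Tsp2A* also shared an unbroken run of 16 bases, CTATCTTATCTTATCG, which begins at position -99 of *Ssk* and -104 of *Tsp2A* and holds 2 copies of TTATC. The run was picked as the longest that *Ssk* and *Tsp2A* share, so these 2 of the 13967 windows hold it by that choice. No other window held it. The longest run shared by *mesh* and *Ssk* was TTGATAAGATA, of 11 bases, which 14 windows held. These matches are descriptions of the letters and not of bound sites.

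PolII was listed on *Ssk* and *Tsp2A* in both cell types and on no other member. *Ssk* encodes a multi-pass membrane protein of the smooth junction, and its PolII height was 1.499 in ISCs/EBs (FDR 0.000644) and 0.782 in ECs (FDR 0.00236). These are ranks 254 of 2216 and 55 of 948, so *Ssk* stood in the upper part of each list. *Tsp2A*, a tetraspanin of the same junction, had a PolII height of 1.372 in ISCs/EBs (FDR 0.00146, rank 386) and of 0.412 in ECs (FDR 0.00859, rank 597). It was thus above most listed genes in ISCs/EBs and below most in ECs, where the list's median was 0.459. *mesh*, which encodes a single-pass transmembrane protein of the smooth junction, was in neither PolII list. None of the 7 pleated junction genes was in either. The members' counts were 2 of 10 in ISCs/EBs, where 15.8% of protein-coding genes were listed, and 2 of 10 in ECs, where 6.77% were. *Ssk* and *Tsp2A* were in both lists, as were 5.06% of protein-coding genes. The members' share in ISCs/EBs was near the background, and that in ECs rests on these 2 genes.

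**Figure D1:**
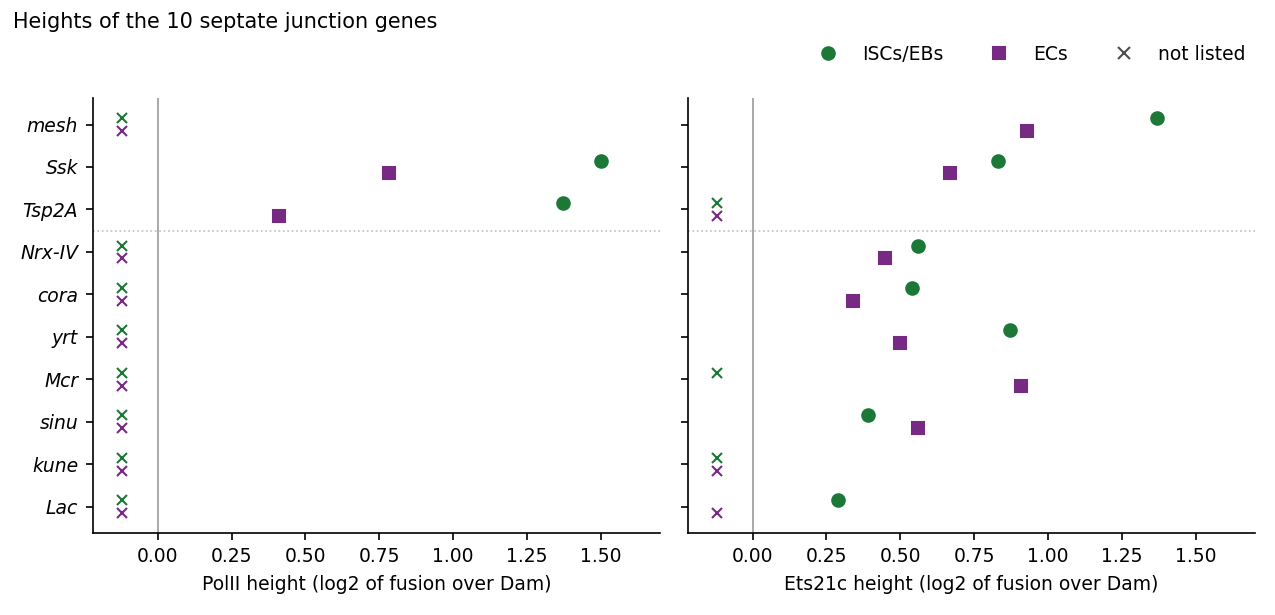
Heights of the 10 septate junction genes, with PolII at left and Ets21c at right, on the horizontal axes as log2 of the fusion over Dam alone. Circles are ISCs/EBs and squares are ECs, each the authors' mean and without an error, crosses left of 0 stand for genes not listed, and the dotted line parts the smooth junction genes (top) from the pleated ones. PolII values occur for *Ssk* and *Tsp2A* alone, whereas 8 of the 10 genes have an Ets21c value.

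Ets21c was listed near 7 of the 10 members in each cell type, against 31.9% of protein-coding genes in ISCs/EBs and 30.3% in ECs. In both cell types it was listed near *mesh*, *Ssk*, *Nrx-IV*, *cora*, *yrt* and *sinu*, 6 of 10, beside 21.4% of protein-coding genes. *Lac* was listed in ISCs/EBs alone and *Mcr* in ECs alone. *Tsp2A* and *kune* were in neither Ets21c list, as were 59.2% of protein-coding genes. The shares were alike for both kinds of junction, with 2 of 3 smooth and 5 of 7 pleated genes listed in each cell type.

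The highest Ets21c height of any member was at *mesh*, at 1.37 in ISCs/EBs and 0.93 in ECs (FDR listed as 0 and as 0.0001). It ranked 4 of 5184 in ISCs/EBs and 62 of 4855 in ECs, where the whole lists reach 1.46 and 1.48. *mesh* thus stood at the top of the Ets21c lists while absent from both PolII lists. *Ssk* had Ets21c heights of 0.83 in ISCs/EBs (FDR 1e-05, rank 241) and 0.67 in ECs (FDR listed as 0, rank 707), and it was the 1 member in all 4 lists, which hold 2.77% of protein-coding genes in common. *Tsp2A* was in both PolII lists and in neither Ets21c list, as were 1.1% of protein-coding genes. The smooth junction genes therefore differed in their listing, with *mesh* listed for Ets21c alone, *Ssk* for both proteins and *Tsp2A* for PolII alone. The heights of unlisted genes are not known, so a missing listing does not show that the protein was absent.

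Among the core components of the pleated junction, *Nrx-IV* encodes a neurexin-type membrane protein. Its Ets21c height was 0.56 in ISCs/EBs (FDR 0.00657) and 0.45 in ECs (FDR 0.0001). *cora* encodes a FERM-domain protein that binds Nrx-IV on the cytoplasmic side, and its heights were 0.54 and 0.34 (FDR 0.0001 in both). Both genes were close to the list median of 0.52 in ISCs/EBs and below that of 0.51 in ECs. *Mcr*, a relative of complement-type thioester proteins, had an Ets21c height of 0.91 in ECs (FDR 0.00122), rank 84 of 4855 and almost that of *mesh*, and was not listed in ISCs/EBs. *Lac* encodes Lachesin, an immunoglobulin-family adhesion protein. Its single height of 0.29 in ISCs/EBs (FDR 0.0001, rank 5024 of 5184) was the lowest of any member and lay under the minimum of 0.3 that the methods state, as did 161 genes of that list. The heading of the deposited list states a minimum of 0.1, which *Lac* passed.

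*yrt* encodes another FERM-domain protein, which joins the pleated junction and restrains the apical membrane through Crumbs. Its Ets21c height was 0.87 in ISCs/EBs (FDR 0.00672, rank 176 of 5184), second among the members to *mesh*, and 0.5 in ECs (FDR 0.0001, rank 2461 of 4855). The claudin *sinu* had the opposite order, at 0.39 in ISCs/EBs (FDR 0.0045, rank 4345) and 0.56 in ECs (FDR 0.00094, rank 1615). *kune*, a further claudin, was the 1 member in none of the 4 lists. The other 9 were in at least 1 of them, as were 44.7% of protein-coding genes. Over the 7 listed members, the median Ets21c height was 0.56 in each cell type, with 5 above the list median in ISCs/EBs and 4 in ECs.

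**Figure D2:**
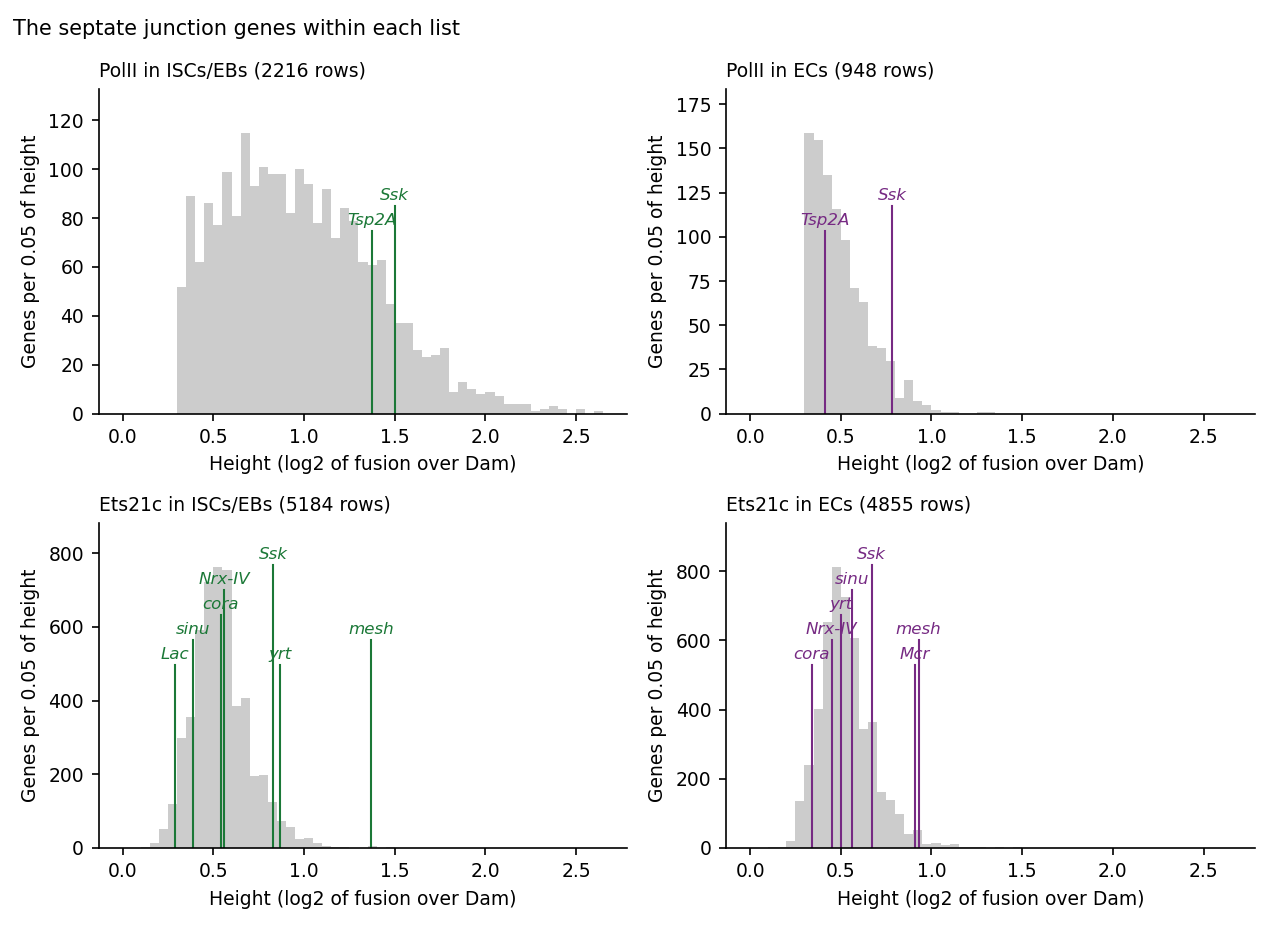
The listed septate junction genes within each of the 4 lists. The horizontal axis is the height (log2 of fusion over Dam alone), grey bars count all listed genes in bins of equal width, and colored lines mark the members, with line lengths chosen only to part the names. *mesh* lies at 1.37 in the far right tail of the Ets21c list of ISCs/EBs, and *Lac* at 0.29 near its left end.

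A member listed for Ets21c without PolII was the most frequent pattern, with 7 of 10 genes (*mesh* and the 6 listed pleated junction genes) beside 27.2% of protein-coding genes. The 3794 protein-coding genes with this pattern had a median length of 2464 bp. The members had a median length of 7492 bp (smooth 1591 bp, pleated 8866 bp), whereas the median was 2164 bp for protein-coding genes, 3194 and 3205 bp for the Ets21c lists of ISCs/EBs and ECs, and 4109 and 2320 bp for the PolII lists. Of the members, 6 were between 6000 and 17374 bp long, the latter the length of *mesh*, and of these 6, 5 were in each Ets21c list and 0 in each PolII list. Of the 1770 protein-coding genes of that length, 47.2% were in the Ets21c list of ISCs/EBs and 45.4% in that of ECs, and 30.6% and 8.53% were in the PolII lists of ISCs/EBs and ECs. The part of length in the members' counts was not tested further. In the long members, GATC sites numbered 41 in *mesh*, 40 in *Nrx-IV*, 92 in *cora*, 18 in *yrt* and 33 each in *Mcr* and *Lac*. Per kb, the median was 2.8 sites for the members and 3.88 for protein-coding genes, and only *cora* (6.26) was above the latter. *Ssk*, which was in all 4 lists, and *Tsp2A* held 4 sites each, *sinu* 5 and *kune*, which was in no list, 2. Whether the number of sites bears on listing was not tested.

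Between the cell types, the Ets21c height was the higher one in ISCs/EBs for 5 of the 6 members in both lists. The difference (ISCs/EBs minus ECs, log2) was 0.44 for *mesh*, 0.37 for *yrt*, 0.20 for *cora*, 0.16 for *Ssk* and 0.11 for *Nrx-IV*, and it was -0.17 for *sinu*. The median was 0.18 for the members and 0.03 for all 3429 genes in both lists, of which 56.3% were higher in ISCs/EBs. The difference of *mesh* was at or above that of 98.5% of these genes and the difference of *yrt* at or above 97.2%, whereas *sinu* stood at the 12.2nd percentile. Heights of different lists need not be on one scale. As ranks within each list, *cora* differed by 49.3 percentile points, *yrt* by 47.3, *Nrx-IV* by 28.5, *Ssk* by 9.9, *mesh* by 1.2 and *sinu* by -50.6. The median was 2.7 for all genes in both lists.

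**Figure D3:**
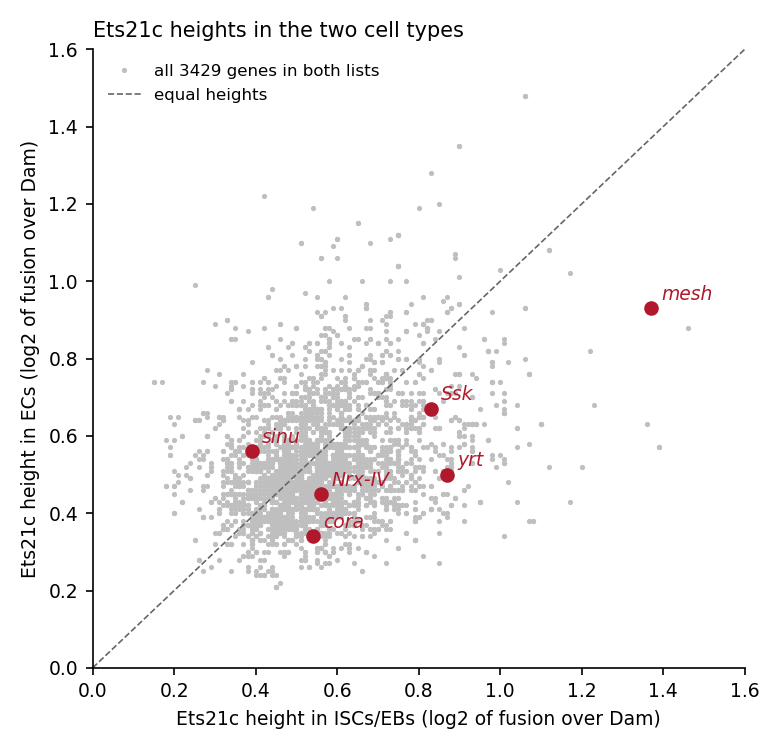
Ets21c heights in ISCs/EBs (horizontal) and ECs (vertical), both as log2 of the fusion over Dam alone, for the 3429 genes in both lists (grey) and the 6 members among them (red). The dashed line marks equal heights. *mesh*, *yrt*, *cora*, *Ssk* and *Nrx-IV* lie below the line, higher in ISCs/EBs, and *sinu* lies above it.

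For PolII, the heights of *Ssk* and *Tsp2A* were higher in ISCs/EBs by 0.717 and 0.96. This order was nearly general, since 705 of the 708 genes in both PolII lists had the higher value in ISCs/EBs, with a median difference of 0.77. Relative to the other listed genes, *Ssk* ranked slightly lower in ISCs/EBs than in ECs (a difference of -5.7 percentile points, 88.6 against 94.3) and *Tsp2A* ranked higher by 45.5 points (82.6 against 37.1). The lists differ in length, and the median shift of all 708 genes was 20.2 percentile points toward ISCs/EBs, so *Ssk* lay below that shift and *Tsp2A* above it. The PolII and Ets21c ratios of a cell type share the same Dam-alone samples, so the heights at one gene are not independent of each other.

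The driver lines were checked on markers fixed as lists. All 5 progenitor markers (*esg*, *Dl*, *zfh2*, *Sox21a* and *klu*) were PolII-listed in ISCs/EBs, at 0.532 to 1.824, and 0 in ECs. Of 6 EC markers, 3 were PolII-listed in each cell type, at 0.472 to 1.543 in ISCs/EBs and 0.56 to 0.594 in ECs. *mex1* and *GATAe* were in both PolII lists, and *Jon99Ci* (0.583) was in that of ECs alone. *Myo31DF* (0.472) was in that of ISCs/EBs alone, and *nub* and *betaTry* were in neither. The ISC/EB list thus also holds genes of the absorptive lineage, and these markers set the EC list apart less clearly. EC markers such as *Myo31DF* can be missing from the EC PolII list. A member's absence from that list therefore does not show that it was not transcribed in ECs. For tissues that build pleated junctions, 1 of 2 glial markers was PolII-listed in ISCs/EBs (*moody*, 1.407) and 0 in ECs, and 0 of 2 tracheal markers were PolII-listed in either cell type. Ets21c was listed near *moody* at 0.5 in ISCs/EBs and 0.68 in ECs, and near the tracheal marker *btl* at 0.56 and 0.31. The defining glial marker *repo* was in neither PolII list. In ISCs/EBs, 1 of 3 visceral muscle markers (*how*, 0.372) and 1 of 2 neuronal markers (*elav*, 0.384) were PolII-listed, against 0 in ECs, and 0 of 4 enteroendocrine markers were in either. The part of such cells in the members' heights was not tested.

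Neighboring genes limit what can be assigned to a member. *mesh* shared its Ets21c height and FDR in both cell types with *bnk*, a 1028 bp gene that lies inside *mesh* on the opposite strand. *Ssk* shared its pair of values in both with *CG42674*, whose 48704 bp span covers *Ssk* on the opposite strand. *Nrx-IV* shared its values with *CG32099*, a gene inside it, and with *eIF3l*, which lies 421 bp away, and *Mcr* shared its EC values with the antisense RNA gene *asRNA:CR45257*, which overlaps its exons by 124 bp. A peak can be assigned to more than 1 gene, and where neighbors have equal values the lists do not tell to which gene the signal belongs. Equal values alone do not show a single peak, since the values are coarse. In ECs, *hoka* and *M6*, far apart on 3L, also have the same height (0.48) and FDR (0.0006). Such sharing was usual, with 66.1% of listed genes in ISCs/EBs and 66.7% in ECs matching a gene within 5 kb. Among the members, 3 of 7 did so in ISCs/EBs and 4 of 7 in ECs, whereas *cora*, *yrt*, *sinu* and *Lac* matched no neighbor. None of these sharing neighbors was in a PolII list. *Tsp2A* lies within *MTPAP*, a gene of 4486 bp on the opposite strand with a PolII height of 0.855 in ISCs/EBs and none listed in ECs. TaDa does not read strand, so the ISC/EB value of *Tsp2A* cannot be told apart from that of *MTPAP*. The EC value of *Tsp2A* has no listed PolII gene overlapping it.

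**Figure D4:**
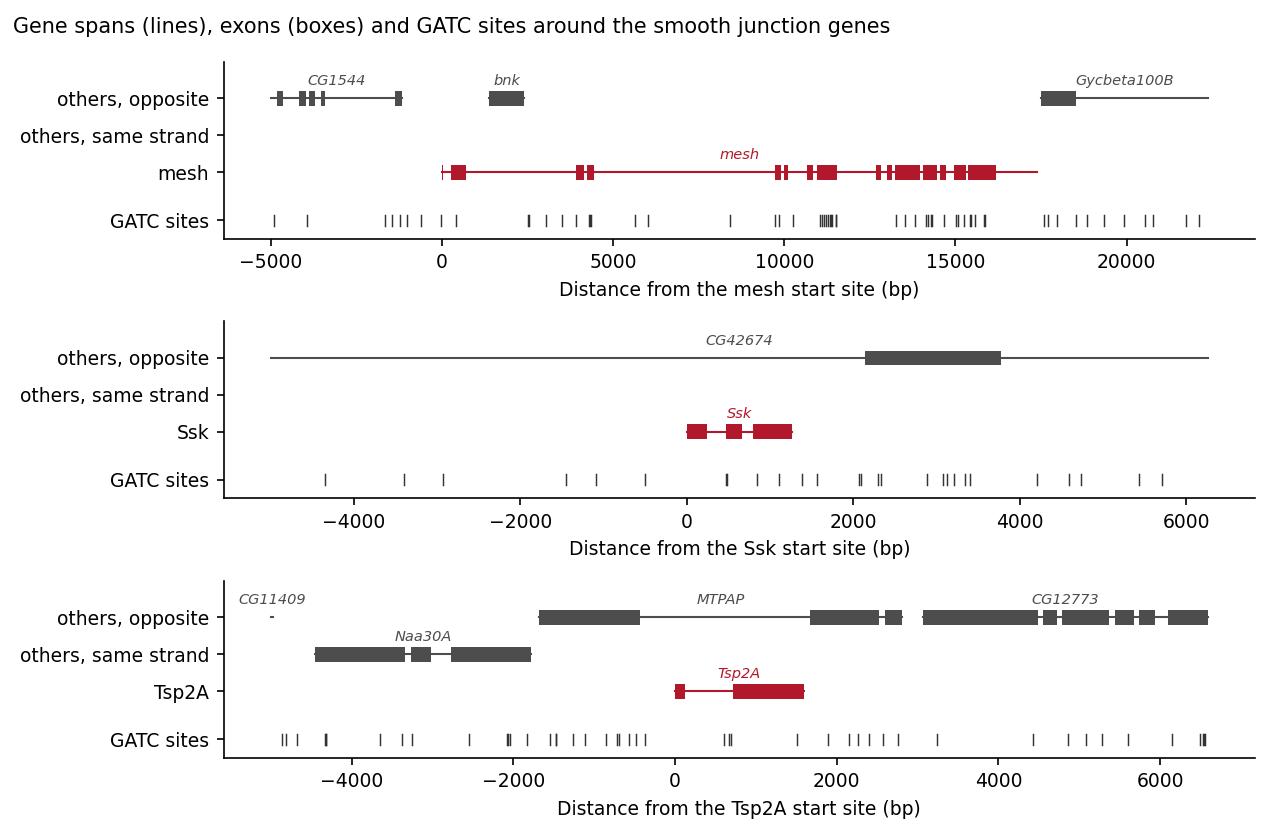
Maps of *mesh*, *Ssk* and *Tsp2A* with the genes around them. The horizontal axis is the distance from the start site in bp, drawn along the direction of the member's transcription. Lines are gene spans, boxes are exons and ticks are GATC sites. *bnk* lies inside *mesh*, *CG42674* extends past both ends of *Ssk*, and *MTPAP* extends past both ends of *Tsp2A*.

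The other members are placed as follows in BDGP6. *Nrx-IV* spans 12146519 to 12156990 on the plus strand of 3L with 12 exons, and *sinu* spans 5559470 to 5561598 on the minus strand of 3L with 2. *cora* (19229063 to 19243751, 16 exons), *kune* (5671741 to 5672800, 1 exon) and *Lac* (12453190 to 12465630, 2 exons) lie on the plus strand of 2R. *yrt* spans 13428867 to 13434984 on the minus strand of 3R with 10 exons, and *Mcr* spans 8074117 to 8082982 on the minus strand of 2L with 7.

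The pattern of the members was next set beside 21 other septate junction genes. Of these, 6 were PolII-listed in ISCs/EBs and 0 in ECs, where 15.8% and 6.77% of protein-coding genes were. Ets21c was listed near 12 in each cell type and near 9 in both, beside 31.9% of protein-coding genes in ISCs/EBs, 30.3% in ECs and 21.4% in both, and the same shares are the background of the subgroups. *Ssk* and *Tsp2A* were thus the only genes among all the junction genes examined that were PolII-listed in ECs. A further membrane protein gene of the smooth junction, *hoka*, had Ets21c heights of 0.65 in ISCs/EBs and 0.48 in ECs and no PolII listing, the same pattern as *mesh*. Among 11 further core genes of the pleated junction, 4 were PolII-listed in ISCs/EBs: the cell adhesion gene *Cont* (0.379), the sodium pump subunits *Atpalpha* (0.361) and *nrv2* (0.739), and *M6* (0.826), which acts at tricellular contacts. Of the 11, 7 were Ets21c-listed in ISCs/EBs and 6 in ECs, with *Nrg*, the fly L1-type adhesion protein and a partner of Nrx-IV and Cont, the highest at 0.75 and 0.55. The MAGUK protein gene *vari* was listed at 0.56 in ISCs/EBs and the adhesion gene *Fas3* at 0.52 in ECs alone. For *bark* the Ets21c heights were 0.54 in ISCs/EBs and 0.49 in ECs, without a PolII listing. The claudin *pck*, the tricellular gene *Gli* and the transferrin gene *Tsf2* were in none of the 4 lists. *pck* and *kune* were therefore both unlisted, and *sinu* was the 1 claudin examined with an Ets21c value.

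Of 6 genes for junction assembly, *cold* was PolII-listed in ISCs/EBs at 0.915, *crim* was Ets21c-listed there at 0.47, and *bou* and *pasi2* were Ets21c-listed in ECs at 0.27 and 0.51. *crok* and *pasi1* were in no list. *bou*, *crok*, *crim* and *cold* encode Ly6-type proteins needed to build pleated junctions. All 3 genes of the basolateral scaffold, *dlg1*, *scrib* and *l(2)gl*, were Ets21c-listed in both cell types. Their heights were 0.63, 0.54 and 0.42 in ISCs/EBs and 0.3, 1.19 and 0.43 in ECs, so that *scrib* in ECs was above every member there, *mesh* included. *l(2)gl* had a PolII height of 1.302 in ISCs/EBs.

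**Figure D5:**
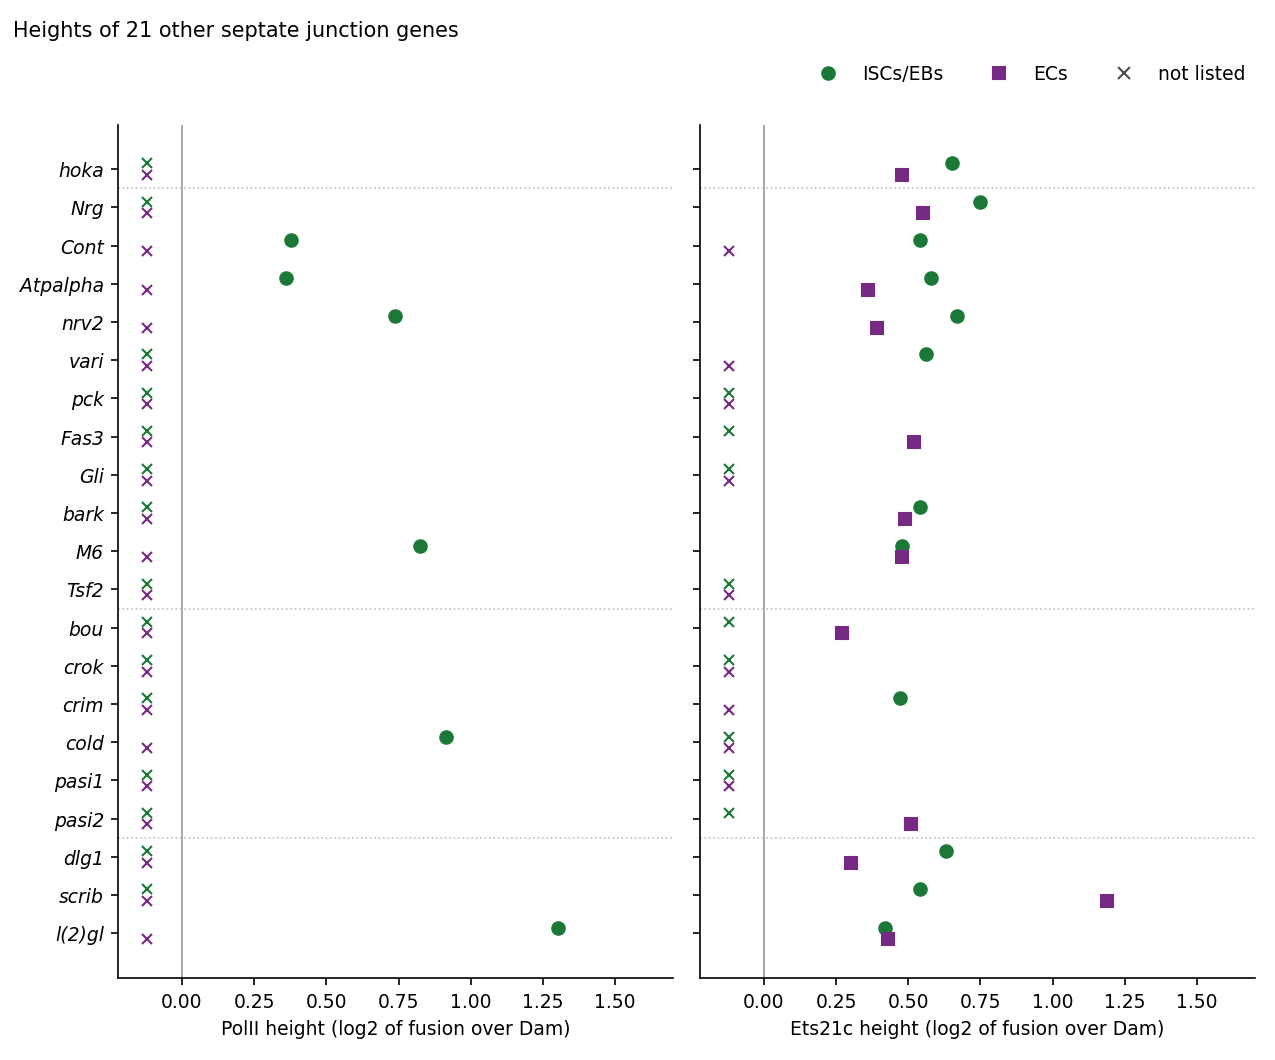
Heights of 21 other septate junction genes, with PolII at left and Ets21c at right as log2 of the fusion over Dam alone. Circles are ISCs/EBs, squares are ECs and crosses are genes not listed. Dotted lines part the smooth junction gene *hoka*, core pleated junction genes, assembly genes and the basolateral scaffold. No square stands in the PolII panel, and the highest Ets21c value is *scrib* in ECs at 1.19.

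*Ssk*, the member with all 4 heights, was compared with the 387 genes that were in all 4 lists. The nearest by Euclidean distance over the 4 log2 heights were *fbl* (distance 0.209), *RhoL* (0.245) and *CG10222* (0.284). Their PolII heights in ISCs/EBs were 1.425, 1.576 and 1.733, and their Ets21c heights there were 0.71, 0.96 and 0.87.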

How the data were processed

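Heights were used as deposited. The authors processed reads with damidseq_pipeline to log2 ratios of fusion over Dam alone per GATC fragment, averaged PolII ratios over transcripts of release 6.03 (dm6) and called Ets21c peaks of consecutive fragments at FDR under 1%. Ets21c replicate 2 was left out by the authors in each cell type, which leaves 2. The deposited FDR for PolII is the highest of the replicates, and the deposited log2 heights are pooled. The submitters' processing notes name dm 3, the methods dm 6. Peak coordinates, reads and depth were not used here.

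Members were matched by symbol. Other genes were matched by FlyBase ID, then symbol, in Ensembl 115 (FlyBase 6.54), with 13968 protein-coding genes of 18277. Of the 4 lists, 7, 2, 21 and 16 genes matched no current ID. Percentiles are the percent of values at or below the value in question, ties included. Motifs were counted on both strands, with CCGGAA also holding GGAA. The members and lists were chosen with earlier results of these data known. Named genes were all members, all 21 other junction genes, neighbors within 5 kb with equal height and FDR, and the 3 nearest to *Ssk*. *MTPAP* was chosen after values were seen. Alternatives were stricter heights and FDRs, a common minimum height, ID matching, leaving out members with a neighbor's values, other denominators and ranks. The search for neighbors with equal values, the percentiles and the sequence windows were tested on simulated data. Scripts ran in python 3.11.15 with matplotlib 3.10.9 for plots, numpy 2.4.6 and scipy 1.17.1.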

Additional observations from a re-analysis of the deposited data

How the results depend on the processing

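With an FDR of at most 0.001, PolII was listed on 1 member in ISCs/EBs (*Ssk*) and on 0 in ECs, and Ets21c near 4 in ISCs/EBs (*mesh*, *Ssk*, *cora* and *Lac*) and 6 in ECs. Of protein-coding genes, 8.43%, 2.55%, 23.5% and 20.9% passed that FDR in the same order of lists. With a height of at least 0.5, 1 member stayed PolII-listed in ECs (*Ssk*), where 2.73% of protein-coding genes did, and 5 stayed Ets21c-listed in each cell type, beside 18.5% in ISCs/EBs and 16% in ECs. Without members that share height and FDR with a neighbor, 4 were Ets21c-listed in ISCs/EBs and 3 in ECs. The share of protein-coding genes under that rule was not computed. Of all listed genes, 66.1% in ISCs/EBs and 66.7% in ECs share values with a neighbor. The shares given for the full lists therefore do not apply to these counts. Without members overlapping another PolII-listed gene, an alternative chosen after seeing the data, 1 was left in ISCs/EBs (*Ssk*). The matching share of genes was not computed. A common minimum of 0.3 removed *Lac* in ISCs/EBs, which left 6, and it took 161 of the 5184 genes from that list. Matching by ID changed no count. As ranks within each list, the members' median difference between cell types was 19.9 percentile points for PolII, near the 20.2 of all genes in both lists, and 19.2 for Ets21c against 2.7, and the PolII difference of *Ssk* turned to -5.7. The share of genes listed was 12.1% (PolII, ISCs/EBs), 5.18% (PolII, ECs), 28.2% (Ets21c, ISCs/EBs) and 26.5% (Ets21c, ECs) over all annotated genes, and 17.9%, 7.88%, 34.1% and 32.2% in that order over coding genes of 1060 to 17374 bp. The denominator of genes of 6000 to 17374 bp was also chosen after seeing the data. No paired analysis was possible because the deposited table holds 1 pooled value per gene and list, and leaving out single replicates was not run for the same reason. Differences of height thus have no replicate check, and depth cannot be weighed.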
